A study of Mus musculus with 20 samples.

Results

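The genes described here are 38 markers of Kupffer cells and other leukocytes, read in liver RNA-seq of mice with a hepatocyte gene trap of Midn. They were chosen by symbol from a fixed list of macrophage, myeloid and lymphocyte genes. The rule takes no value of theirs, but earlier results of these data were known when the list was chosen. All 38 were listed in both deposited tables, among 56884 genes in males and 18149 in females. The Midn XTR allele is a gene trap that Cre inverts to the trapped state, and Albumin-Cre directs that inversion to hepatocytes, so the cells that express most of these markers are not the ones in which the allele was targeted. In each sex, RNA-seq covered livers of 3 WT animals, whose genotype label reads Midn XTR, and 3 Midn-T animals, labelled Midn TR, all aged 11 to 14 weeks and given no further treatment. Whether the WT animals carried Cre is not given in the sources used here. In the paper, the allele was made in embryos of a C57BL substrain. The paper does not state the background of the sequenced animals.

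The values are the authors' mean normalized counts over the 6 libraries of 1 sex, with both genotypes in the mean. They therefore give the level of each marker in male and in female liver and nothing on WT against Midn-T, which was not compared here. The means have no SD and no n of their own, and whether 1 library sets a mean cannot be seen from them. The means summed to 3.03e+07 in the male table and 3.08e+07 in the female table. The library labels could not be checked against Midn itself in these pooled means, and the authors' own comparison of genotypes was not used. The paper reports lower Midn mRNA by qPCR in Midn-T livers of both sexes.

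Kupffer cells are the resident macrophages of the liver. They sit in the sinusoids, clear particles, microbes and old erythrocytes from portal blood, and carry receptors such as Clec4f, Vsig4 and Timd4. Monocytes from blood, which carry Ly6c2 and Ccr2, can enter the liver and replace them. MHC class II molecules present peptides to CD4 T cells and are made by dendritic cells, B cells and many macrophages, while C1q starts the classical complement pathway and is made largely by macrophages. In bulk liver RNA, fewer cells of a type and less RNA per cell cannot be told apart.

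Of the promoters of the members, 31 of 38 matched the RefSeq table by symbol, on build GRCm38.p6. Csf1r, C1qa, Tyrobp, H2-Ab1, Cd74, Adgre1 and Cd4 had no entry. The 250 bases before the start are shown for H2-Aa and H2-Eb1, because these MHC class II genes lie side by side and both had lower means in the female table. Capitals mark CTGATTGG, the letters of the Y box that is known in MHC class II promoters.
H2-Aa, chr17:34287824-34288073, minus strand: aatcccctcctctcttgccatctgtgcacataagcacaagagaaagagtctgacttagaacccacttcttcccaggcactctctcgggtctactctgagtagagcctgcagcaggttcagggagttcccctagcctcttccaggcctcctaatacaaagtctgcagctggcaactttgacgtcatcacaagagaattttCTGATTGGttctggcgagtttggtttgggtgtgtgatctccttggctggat
H2-Eb1, chr17:34305617-34305866, plus strand: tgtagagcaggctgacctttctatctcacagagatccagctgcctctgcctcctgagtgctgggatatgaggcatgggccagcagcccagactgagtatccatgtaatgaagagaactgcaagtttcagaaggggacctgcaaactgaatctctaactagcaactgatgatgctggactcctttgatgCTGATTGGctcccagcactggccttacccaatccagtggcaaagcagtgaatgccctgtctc

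The capitals began 51 bases before the start of H2-Aa and 62 bases before that of H2-Eb1. Searched on both strands in the 250 bases before the start, and chosen after the sequences were seen, these letters were in the promoters of 2 of the 31 members, H2-Aa and H2-Eb1, against 4.43% of 27025 promoters. GAGGAA, core letters that the myeloid factor PU.1 can bind, was in 16 of the 31 members (51.6%) against 25.9% of all promoters. The 16 did not follow cell type. They included the lymphocyte genes Cd3e, Cd8a and Cd79a, while the macrophage genes Clec4f, Timd4, Lyz2 and Mpeg1 were among those without these letters. The longer GAGGAAGT, which contains GAGGAA, was in C1qc, Ly6c2 and S100a8, with a share over all promoters of 2.79%. A match is a description of letters and not a bound site.

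The levels of the members spread widely. A level here is the mean normalized count per kb of the union of a gene's exons, so that genes of different length can be set beside each other. The highest member stood 583-fold above the lowest in males and 489-fold in females. The median member level was 143 per kb in males and 139 per kb in females, against 43.8 and 71.5 per kb over all ranked protein-coding genes. The second pair of values is not comparable between sexes, since the female table lists no gene with a mean below 6.61 while the male table holds 26580 genes at 0. The standing of the members also depends on dividing by length. Ranked with no length, their median place among protein-coding genes went from the top 26.8% to the top 45.3% in males. In females it went from the top 32.9% to the top 60.4%. Together the members held 0.0881% of all normalized counts in males and 0.0816% in females, and the 5 with the largest means held 48.9% and 48.5% of the members' own sum.

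**Figure D1:**
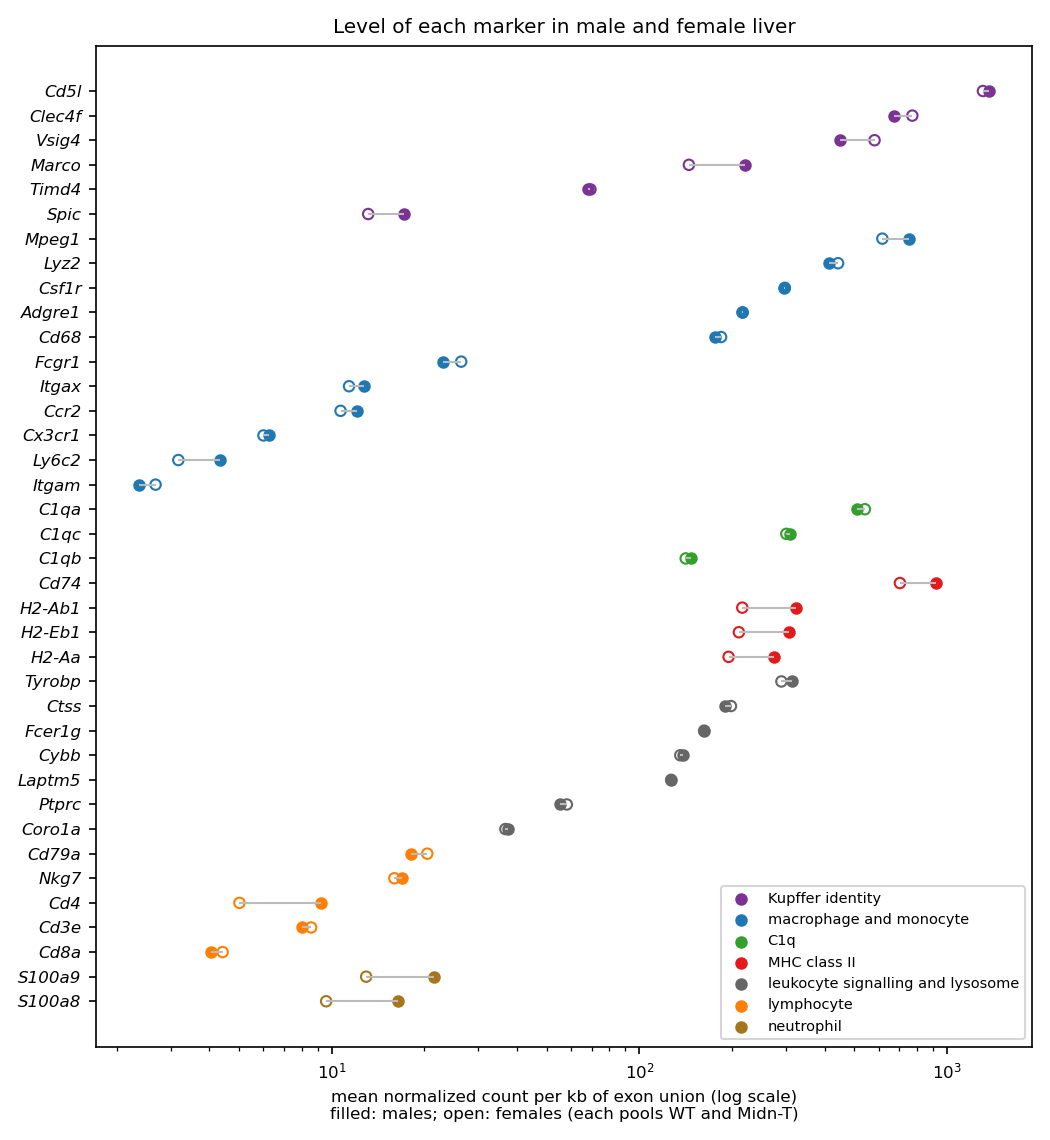
Level of each of the 38 markers, as the authors' mean normalized count per kb of exon union on a log axis, with filled points for males and open points for females, coloured by role. Cd5l was highest in both sexes (1374 and 1309 per kb) and Itgam lowest (2.36 and 2.68 per kb); each point pools WT and Midn-T and carries no error.

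Of the 6 Kupffer identity genes, Cd5l, Clec4f and Vsig4 were among the highest of the members. Cd5l, a secreted scavenger receptor protein of tissue macrophages, had a mean normalized count of 2806 in males and 2672 in females, and its level of 1374 per kb placed it in the top 3.19% of protein-coding genes in males. Clec4f, the lectin that in mice is restricted to Kupffer cells, had means of 2479 in males and 2853 in females, or 670 and 772 per kb. Vsig4, a complement receptor that takes up opsonised particles, had means of 668 and 864, or 449 and 581 per kb. These 3 genes lay in the top 10 percent of both tables, Vsig4 with the lowest place of the 3 at 9.58% in males and 9.18% in females.

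The other 3 genes of Kupffer identity were lower. Marco, a scavenger receptor for bacteria, had a mean of 424 in males and 279 in females. Timd4, the phosphatidylserine receptor that marks long-resident Kupffer cells, had means of 270.0 and 275. Spic, the transcription factor that red pulp and other iron-recycling macrophages use, had means of 71.0 and 54.3, and at 17.2 and 13.1 per kb it was the lowest of the group. The 6 genes thus spanned from 17.2 to 1374 per kb in males.

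Among the general macrophage genes, 5 stood at 176 per kb or above in males and the other 6 at 23.1 per kb or below. Mpeg1, the pore-forming protein of phagocytes, had the largest mean of all members in males (3276 against 2691 in females). Lyz2, lysozyme of myeloid cells, had means of 1379 and 1472, and Csf1r, the receptor for the growth factor that macrophages need, 2169.9 and 2187. Adgre1, which encodes the antigen F4/80, had means of 762 and 763, and Cd68, a lysosomal membrane protein, 240.5 and 252. On the per kb scale these 5 genes ran from 176 (Cd68) to 751 (Mpeg1) in males.

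The 6 low genes of this group include the markers by which blood monocytes are told from Kupffer cells. Fcgr1, the high-affinity IgG receptor, had means of 80.6 in males and 92.0 in females, and was the highest of the 6 at 23.1 and 26.4 per kb. Ccr2, the chemokine receptor that brings monocytes out of the marrow, had means of 82.1 and 72.3. Cx3cr1, the fractalkine receptor, had means of 29.0 and 28.0, and Ly6c2, a surface antigen of inflammatory monocytes, 13.3 and 9.71. Ly6c2 has close paralogs, and only uniquely mapped reads were counted, so its level is uncertain. Itgam and Itgax, the integrin chains CD11b and CD11c, lie 10914 bp apart on chromosome 7 and differed in level, with means of 12.1 and 13.7 for Itgam and of 62.0 and 55.3 for Itgax.

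The 3 chains of C1q had nearly equal normalized counts. C1qa (ENSMUSG00000036887) had means of 823 in males and 871 in females, C1qb (ENSMUSG00000036905) 917 and 884, and C1qc (ENSMUSG00000036896) 881 and 859. In GRCm39 they lie in a row on chromosome 4, C1qb at 136606009 to 136613511, C1qc at 136616466 to 136620376 and C1qa at 136623223 to 136626161, with gaps of 2954 and 2846 bp. Without a length the ratio of C1qb to C1qa was 1.11 in males and 1.01 in females, and that of C1qc to C1qa was 1.07 and 0.99. Per kb of exon union the same ratios in males were 0.29 and 0.60, with exon unions of 1610 bp for C1qa, 6246 bp for C1qb and 2860 bp for C1qc, and per kb of the median coding transcript they were 0.49 and 0.65. C1qa was the highest and C1qb the lowest of the 3 per kb in males under each of the 3 lengths.

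The MHC class II genes were abundant in both sexes, and all 4 had lower means in the female table. Cd74, the invariant chain that guides class II molecules to the endosome, had means of 2321 in males and 1768 in females. H2-Aa (ENSMUSG00000036594), the alpha chain of I-A, had means of 1174 and 837. H2-Ab1 (ENSMUSG00000073421), the beta chain of I-A, had means of 829 and 555, and H2-Eb1 (ENSMUSG00000060586), the beta chain of I-E, 794 and 547. These are RNA values, and whether an I-E protein was made is not shown by them. Cd74 stood above the other class II members, at 2.86 times the level of H2-Ab1 per kb in males and 3.25 times in females. The ratio of H2-Eb1 to H2-Ab1 per kb of exon union was 0.95 in males and 0.97 in females, so it was similar in both tables. Its value depends on the length, and per kb of the median coding transcript it was 0.65 and 0.67.

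In GRCm39, H2-Ab1 spans 34476663 to 34488393 on chromosome 17, H2-Aa 34493404 to 34506798 and H2-Eb1 34504236 to 34535648. The annotations of H2-Aa and H2-Eb1 overlap by 2563 bp on opposite strands. Counting was stranded, which separates reads of opposite strands. The exon union of H2-Aa was 4292 bp against 1089 bp for its median coding transcript. Its level in males was 273 per kb of union, 364 per kb of its longest transcript and 1078 per kb of its median coding transcript, so its place among the members depends on that choice.

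The genes of leukocyte signalling and the lysosome had similar means in the 2 tables. Ptprc, which encodes CD45 on all nucleated blood cells, had means of 1039.9 in males and 1091 in females. Ctss, the protease that trims the invariant chain, had means of 1009 and 1053, and Cybb, the membrane subunit of the phagocyte NADPH oxidase, 807 and 790.0. Laptm5, a lysosomal membrane protein of blood cells, had means of 529.6 and 531, and Coro1a, an actin-binding protein of leukocytes, 153 and 150.2. The adaptors Tyrobp and Fcer1g, which pass on signals of activating receptors, had means of 214 and 198 for Tyrobp and of 188 and 188 for Fcer1g. Per kb Tyrobp stood 1.94 times above Fcer1g in males and 1.78 times in females, and without a length 1.14 and 1.05 times. Ptprc had 55.4 per kb of union in males against 181 per kb of its longest transcript.

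The lymphocyte genes were low, each with a mean under 100. Cd3e, a chain of the T cell receptor complex, had means of 32.6 in males and 35.0 in females. Cd4 had means of 41.6 and 22.5, and Cd8a, the coreceptor of cytotoxic T cells, 14.7 and 16.1. Cd79a, a signalling chain of the B cell receptor, had means of 27.5 and 31.2, and Nkg7, a granule protein of NK and cytotoxic T cells, 15.5 and 14.7. Of these 5 genes, Cd4 had the largest gap between the tables. The 4 T cell genes of the marker list that are neither coreceptors nor Cd3e were higher in the female table, with means in males and females of 8.15 and 13.2 for Cd3d, 18.2 and 26.0 for Cd3g, 20.4 and 22.7 for Trac and 33.6 and 45.7 for Lck.

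The neutrophil genes S100a8 and S100a9, which together form calprotectin and lie 21802 bp apart on chromosome 3, were also low. S100a8 had means of 16.1 in males and 9.45 in females, and S100a9 27.6 and 16.5. S100a9 kept a nearly fixed ratio to S100a8 per kb, 1.32 in males and 1.35 in females. Of the other neutrophil markers, Ly6g had a male mean of 0.15 and Retnlg of 1.88, and neither is listed in the female table, while Csf3r, the receptor for G-CSF, had means of 117 and 95.5.

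**Figure D2:**
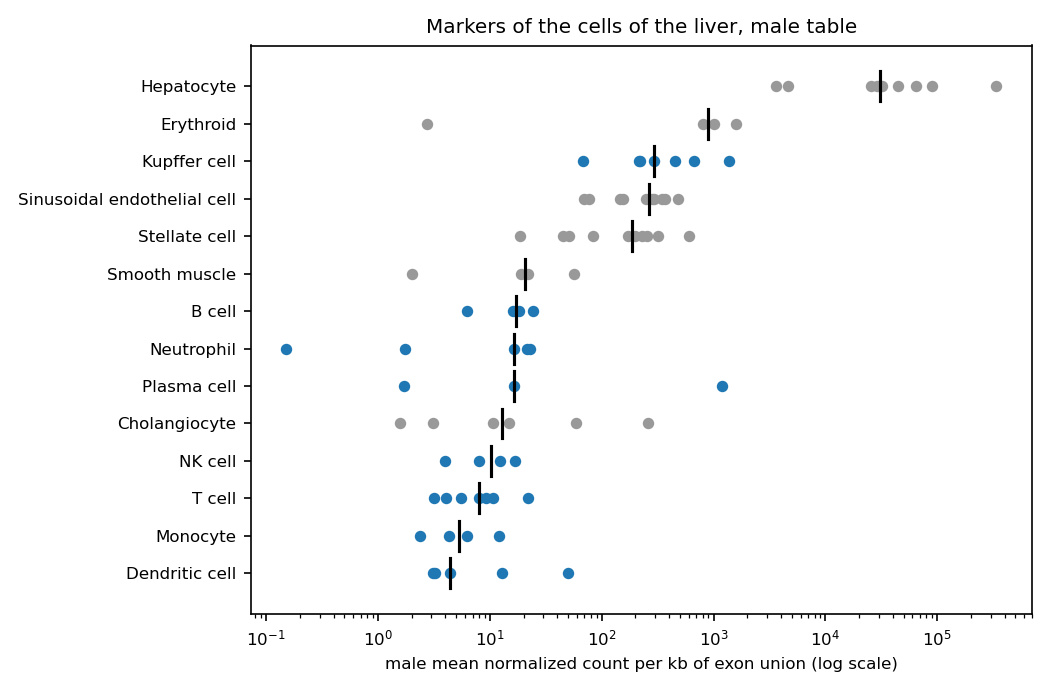
Level of each gene of 14 marker lists in the male table, as mean normalized count per kb of exon union on a log axis, with lists of leukocytes in blue, all others in grey and the median of each list as a black bar. The Kupffer cell list (median 295 per kb) stood beside the sinusoidal endothelial list (263 per kb), and the other leukocyte lists had medians between 4.41 and 17.1 per kb.

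The members were set beside marker lists of the cells of the liver, and the Kupffer cell list was the highest of the leukocyte lists in males. Its 7 genes, Clec4f, Vsig4, Timd4, Cd5l, Marco, Adgre1 and Csf1r, are all members, so this is no independent check of the label. Spic, at 17.2 per kb in males, is not in that list. The 7 genes had a median of 295 per kb in males and 297 in females. In males that was 17.3 times the median of the B cell list, 18.0 times that of the neutrophil list, 29.0 times that of NK cells, 36.9 times that of T cells, 55.7 times that of monocytes and 66.9 times that of dendritic cells. These folds depend on which markers a list holds and on how it is summarised. With the mean of log2 levels in place of the median, the male neutrophil list went from 16.4 to 4.63 per kb, below each of the B, NK and T cell, monocyte and dendritic cell lists, and the dendritic cell list from 4.41 to 7.75 per kb, while the Kupffer cell list stood at 327 per kb. The hepatocyte list, led by Alb, had a median 104 times that of the Kupffer cell list in males and 102 times in females. The plasma cell list is no measure of plasma cells here, since Sdc1, at 4995 and 6753 mean normalized counts, is also a hepatocyte gene, Mzb1 had a male mean of 2.43 and is not listed in females, and Jchain had 41.1 and 32.4. Of the 38 members, 14 had a mean under 100 in each table. These were the lymphocyte and neutrophil members, the genes of the monocyte list, Itgax, Fcgr1 and the Kupffer identity gene Spic.

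The sexes were normalized in separate tables, so their levels are set side by side with no test, and sex, normalization and handling cannot be told apart. Ratios of the female to the male mean were centred on the median gene, which stood 0.07 above 0 on the log2 scale. Of the 18132 genes above 0 in both tables, 4.74% were at least 1.5-fold lower in females and 9.9% at least 1.5-fold higher. The female table lists no gene with a mean below 6.61, so weak genes that are low in females are missing from these shares. Among genes with a mean of at least 50 in both tables, with the same centre, the shares were 4.21% and 4.24%. Of the 38 members, 6 were at least 1.5-fold lower (15.8%), and 0 were at least 1.5-fold higher. The median log2 ratio of the members was -0.11, with 29 of 38 below 0, but centring on the hepatocyte list in place of all genes moved that median to 0.09 and left 13 below 0, so no direction of the set as a whole can be given. The span from the 5th percentile of all genes, -0.57, to the 95th, 0.86, held every member but those 6.

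**Figure D3:**
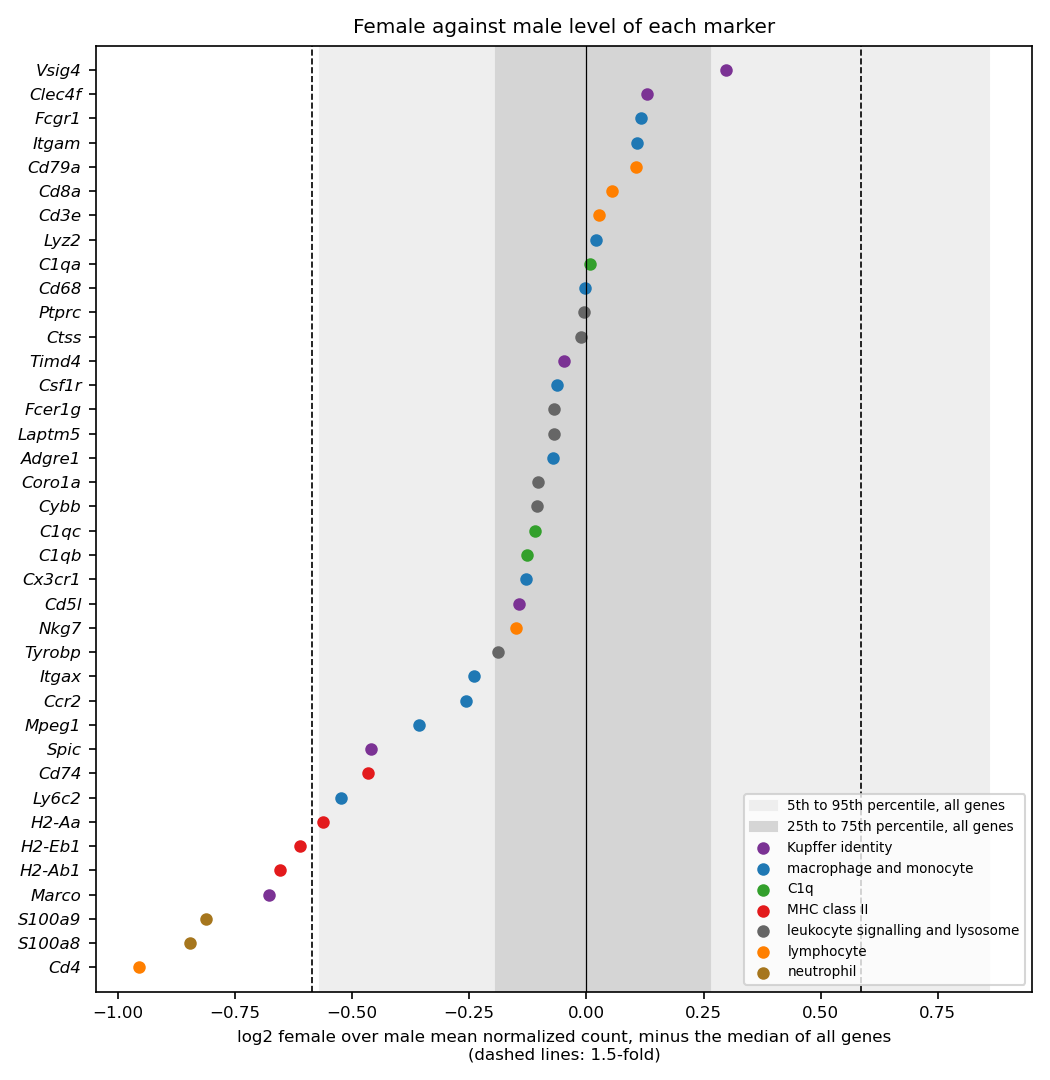
Female over male mean normalized count of each marker on the log2 scale after centring on the median gene, with dark and light grey bands for the 25th to 75th and the 5th to 95th percentile of 18132 genes and dashed lines at 1.5-fold. The 6 markers left of the lower line are Cd4, S100a8, S100a9, Marco, H2-Ab1 and H2-Eb1, and Vsig4 is farthest to the right at 0.30.

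Of the 6 lower members, Cd4 had the largest gap, 1.94-fold, followed by S100a8 at 1.80-fold, S100a9 at 1.75-fold and Marco at 1.60-fold. H2-Ab1 was 1.57-fold lower in females and H2-Eb1 1.53-fold, the member nearest inside the line, while H2-Aa at 1.48-fold was nearest outside. Cd4, S100a8 and S100a9 have means under 50 in both tables. Among genes with a mean of at least 50 in both tables, and with the centre kept, Marco, H2-Ab1 and H2-Eb1 were past the line, 3 of 28 members against 4.21% of 12436 genes. When the centre was taken from those genes as well, at 0.02, Marco and H2-Ab1 were past it, 2 of 28 members against 3.46% of the genes.

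All 4 MHC class II genes were below 0 under every centring tried, with a median log2 ratio of -0.59 after centring on the median gene. Their number past 1.5-fold was 2 with that centring and 0 when the tables were not centred or were centred on the hepatocyte list. It was 1, H2-Ab1, when the tables were scaled by their sums, when protein-coding genes alone set the centre and when genes with a mean of at least 50 did. Of cells that carry class II molecules, the dendritic cell list had a median log2 ratio of -0.11, the B cell list of 0.14 and the Kupffer cell list of -0.06. Male means were under 100 for 4 of the 5 dendritic cell genes and all 4 B cell genes. The Kupffer cell genes ran from -0.68 to 0.30. The part of these cells in the lower class II means was not tested.

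The Kupffer identity genes went in both directions, with Vsig4 at 0.30, Clec4f at 0.13, Timd4 at -0.05, Cd5l at -0.14, Spic at -0.46 and Marco at -0.68 on the centred log2 scale. Marco and Vsig4, both receptors of the same cell type, thus differed by more than 1.5-fold in their ratios under any centring, since a centring moves all genes alike. The C1q chains lay between -0.13 and 0.01, and the 7 genes of leukocyte signalling and the lysosome between -0.19 and -0.01. Over the 38 members, the log2 levels of males and females had a Pearson correlation of 0.993, a description that rests on gene lengths and library preparation shared by both tables.

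**Figure D4:**
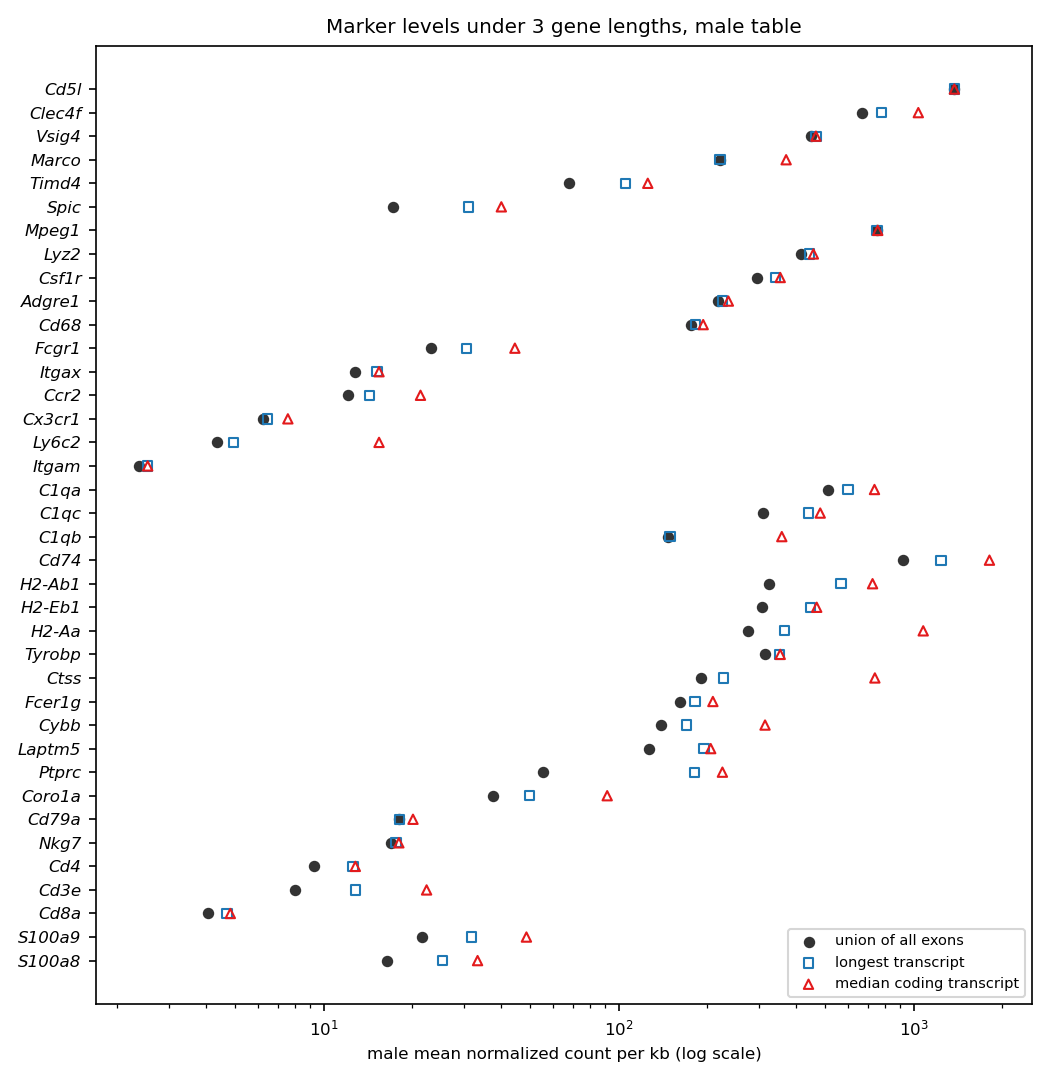
Level of each marker in the male table on a log axis when the mean normalized count is divided by the union of exons (filled circles), the longest transcript (squares) or the median coding transcript (triangles). H2-Aa ran from 273 to 1078 per kb and Ptprc from 55.4 to 225 per kb, while Cd5l stayed at 1374 per kb.

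The order of the members depended on the gene length used. Dividing by the median coding transcript moved 21 of the 38 male levels by over 1.5 times and dividing by the longest transcript moved 7. C1qb went from 147 to 357 per kb with the median coding transcript, Ctss from 190.2 to 739 and S100a9 from 21.6 to 48.7. Within a table, neighbours in the order were close: H2-Ab1, Tyrobp, C1qc and H2-Eb1 stood at 323, 314, 308 and 306 per kb in males, and with no spread over libraries these 4 cannot be put in order.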

How the data were processed

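RNA-seq was made by the authors from rRNA-depleted total liver RNA with a dUTP-stranded kit. Reads were aligned by the authors to GRCm39 with STAR 2.7 and uniquely mapped reads were assigned to Ensembl release 110 genes with HTSeq in reverse-stranded mode. The signal values used here are the mean normalized counts of the authors' deposited tables, made with DESeq2 within each sex as the mean over 6 libraries, WT and Midn-T together. The remaining columns of these tables hold the authors' own comparison of Midn-T with WT (fold changes, standard errors, statistics and p-values) and were not used. No value of a single library is in the tables, so depth per library is unknown, no mean carries an SD, no difference between genotypes is given and no test was run.

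Each mean was divided by the length in kb of the union of the gene's exons in GENCODE M39, which differs from the release used for counting. Protein-coding genes with a mean above 0 were ranked by this level. Female over male ratios were centred on the median of 18132 genes above 0 in both tables, and a gene was counted as past 1.5-fold after centring. The calculation was also run on simulated means with planted log2 shifts of 1.5 and no floor on female means. Those shifts are larger than the 1.5-fold line, so the run does not bear on genes near it. Genes were joined by Ensembl identifier. Every member is named by role, and of other genes those of the marker lists. The members and lists were chosen with earlier results of these data known. Python 3.11.15, numpy 2.4.6, pandas 2.3.3 and matplotlib 3.10.9 were used, with a seed of 20. Alternatives were other gene lengths, ranks, centrings, folds, filters on low means and list summaries. ATAC-seq peak lists were not used.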

Additional observations from a re-analysis of the deposited data

How the results depend on the processing

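No paired analysis was possible because the tables hold no value of a single library, and no library could be left out for the same reason. The number of members at least 1.5-fold lower in females was 6 (4.74% of all genes). It became 3 when centred on the hepatocyte list (2.67% of all genes), 2 with a mean of at least 50 in both tables (3.46%) and 0 at 2-fold (1.57%). With that minimum and the centre of all genes kept, an alternative chosen after seeing the data, it was 3 (4.21%). It was 4 not centred (3.73%), 5 scaled by the sum (4.02%) and 5 among protein-coding genes (4.04%). Over all genes the split of lower to higher was 860 to 1795 and became 485 to 3184 with the hepatocyte centring, whose centre was -0.12 in place of 0.07. With a mean of at least 50 in both tables and the centre of all genes kept, the split was 523 to 527. The count of members at least 1.5-fold higher was 0 under each alternative. The median member level became 217 per kb in males and 223 in females with the median coding transcript. The median place of the members among protein-coding genes, top 26.8% in males and 32.9% in females, became 45.3% and 60.4% when genes were ranked with no length, and the cause was not tested. Ranked over the genes listed in both tables, it was 32.7% and 32.9%, so the sexes differed in it by the genes ranked, 16631 in males and 13621 in females. The share of all counts held by the members moved by less than 1.5 times. Of the ratios within a complex, 8 moved by over 1.5 times with the longest transcript or no length, and of the medians of marker lists, 6. The median coding transcript is not in that count of 8. With it, H2-Aa over H2-Ab1 went from 0.847 to 1.485 in males and from 0.902 to 1.583 in females. C1qb over C1qa went from 0.287 to 0.485 and from 0.262 to 0.442. Depth limits the members with means under 100, and counting error could not be given.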

Other observations

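Among the marker lists of other liver cells, the means of several were higher in the female table on the log2 scale centred on the median gene. All 10 stellate cell genes were above 0, with a median of 0.33, and the highest of the list, Ecm1, had means of 2389 in males and 3203 in females. Of the 10 sinusoidal endothelial genes, 9 were above 0, with a median of 0.14, and Lyve1 was the exception at -0.50. All 4 smooth muscle genes were above 0, with a median of 0.61, and 5 of 6 cholangiocyte genes, with a median of 0.51. Male means were under 100 for 2 of these smooth muscle genes and 4 of the cholangiocyte genes. The hepatocyte list went the other way by its median, which was -0.20 with 7 of 10 genes below 0. Its sum did not. Alb, the highest gene of that list, was at 0.36, and the uncentred log2 ratio of the list's summed means was 0.26. The erythroid list had a median of 0.32, with 3 of 4 genes above 0 and Alas2 at -2.31. Lymphocyte lists also had medians above 0, at 0.08 for T cells (6 of 7 genes above 0), 0.14 for B cells (3 of 4) and 0.20 for NK cells (3 of 4). Every gene of these lymphocyte lists had a male mean under 100. The Kupffer cell list had 2 of 7 genes above 0 with this centring and 5 of 7 when the tables were not centred, so it has no direction of its own here. These are means of separately normalized tables and were not tested.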
